A study of Mus musculus with 4 samples.

Results

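The 10 genes described here encode secreted modulators of Wnt signalling, with one ligand and one intracellular inhibitor among them, and were chosen by name from the 32285 features of the count matrices. They are the Frizzled-related decoys Sfrp1, Sfrp2, Sfrp4, Sfrp5 and Frzb, the decoy Wif1, the Dickkopf proteins Dkk2 and Dkk3, the ligand Wnt6 and Nkd1. Each symbol matched 1 Ensembl identifier. The cells came from 2 hind limb muscles (tibialis anterior, gastrocnemius) of males aged 2 months, and each genotype was a pool of 4 animals. All animals were S100GFPtg, a reporter with GFP under control of the S100B promoter that marks Schwann cells, and they were otherwise wild type (WT) or Sod1-/- (the libraries labelled Sod1KO), which lack the superoxide dismutase gene Sod1 in the germline. Live cells were sorted into GFP+ and GFP- fractions, and each of the 4 groups (WT GFP+, Sod1KO GFP+, WT GFP- and Sod1KO GFP-) gave 1 droplet library counted at the 3′ ends of transcripts. Values are therefore given for each library, no test across mice could be run, and a difference between genotypes cannot be told apart from one between pools or preparations.

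The libraries held 2052 to 7267 barcodes with medians of 6152.5 to 13825.5 unique molecular identifiers (UMIs, counted molecules), and 1638 to 5925 cells were left after filtering. Any 2 libraries shared 1 to 13 barcodes. WT GFP- stood apart: it was the smallest and shallowest library, and 58.3% of its cells lay in clusters without a cell type name, against 11.1% to 29.8% in the others. Sod1 itself was not depleted in the libraries labelled Sod1KO, at 90.96 CPM (its share of all UMIs, scaled to a common total) for WT and 98.18 for Sod1KO among GFP+ cells, and at 122.9 and 112.7 among GFP- cells. The sources used here do not say whether the counted 3′ ends lie in the deleted stretch, so Sod1 gives no check of the genotype, and every direction given here is between libraries as labelled.

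Wnt proteins bind Frizzled receptors and their LRP5 and LRP6 co-receptors, which stabilises β-catenin and switches on TCF/LEF target genes. Secreted Frizzled-related proteins carry a Frizzled-like domain and bind Wnt outside the cell, Wif1 does so through a WIF domain, and Dickkopf proteins act at the LRP co-receptors, although Dkk3 is not a classical LRP antagonist. Nkd1 is a Wnt target that binds Dishevelled inside the cell and damps the signal. In muscle, Wnt signals act on satellite cells, on fibro-adipogenic progenitors and at the neuromuscular junction.

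The 250 bases before the annotated start are shown for Wif1, Sfrp5 and Frzb, 3 members whose highest levels lay in 3 different cell types (tenocytes, perineurial cells and myelinating Schwann cells). They were taken from RefSeq on GRCm38.p6, at chr10:121033754-121034003 on the plus strand for Wif1, chr19:42202253-42202502 on the minus strand for Sfrp5 and chr2:80447397-80447646 on the minus strand for Frzb, each upstream of the gene's first base, and are written 5′ to 3′ with motif matches in capitals.
Wif1: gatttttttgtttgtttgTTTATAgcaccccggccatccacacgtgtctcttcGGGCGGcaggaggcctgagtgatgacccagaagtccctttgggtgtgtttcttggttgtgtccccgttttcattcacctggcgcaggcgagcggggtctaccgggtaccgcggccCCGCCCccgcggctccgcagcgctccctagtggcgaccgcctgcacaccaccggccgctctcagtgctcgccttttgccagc
Sfrp5: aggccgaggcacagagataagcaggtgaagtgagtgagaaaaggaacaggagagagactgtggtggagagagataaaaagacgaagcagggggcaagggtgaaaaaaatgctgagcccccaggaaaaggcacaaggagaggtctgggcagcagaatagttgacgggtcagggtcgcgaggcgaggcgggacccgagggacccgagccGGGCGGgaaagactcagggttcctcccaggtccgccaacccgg
Frzb: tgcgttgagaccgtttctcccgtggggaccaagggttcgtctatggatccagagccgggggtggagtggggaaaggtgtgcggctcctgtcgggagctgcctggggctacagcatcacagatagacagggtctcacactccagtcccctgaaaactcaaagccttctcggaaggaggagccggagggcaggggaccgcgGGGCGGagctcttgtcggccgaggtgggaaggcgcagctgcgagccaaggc
The capitals mark the GC box GGGCGG or its reverse complement, at 197 and 82 bases before the start of Wif1, 43 before Sfrp5 and 51 before Frzb, and in Wif1 also a TATAAA on the reverse strand at 232 bases. Promoter entries were found for 7 of the 10 members. The TCF/LEF motif CTTTGAT or CTTTGTT, searched on both strands, was in 0 of these 7 windows, and in 8.06% of all 32851 promoter windows of this length. The GC box was in 5 of the 7, against 32.7% of all windows, and TATAAA was in Dkk2 and Wif1, against 12.4%. CCAAT was in Dkk2 alone, against 33.8%. A match is a description of letters and not a site. The genes lie on chromosomes 10 (Wif1, 121034004 to 121100642), 19 (Sfrp5, 42197971 to 42202252) and 2 (Frzb, 80411970 to 80447396) of that build.

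Cell types were rebuilt from 36 clusters made without any Wnt gene or member, and a cluster was called after a cell type only where that type's markers were enriched in it. The fibroblast group held Pi16 fibroblast-like cells, cells with Myoc and Fst that resemble fibro-adipogenic progenitors (FAP-like), Inmt stromal-like cells, which were shallow with medians of 3185 and 3414 UMIs in the GFP+ libraries, and further cells named only fibroblast-like. Their leading genes matched their names, with Pi16 first in the Pi16 cells, Myoc and Fst first in the FAP-like cells and Inmt first in the Inmt cells. The FAP-like cells also had 6 of 6 Inmt stromal markers above the limit. The cells named only fibroblast-like had 4 of 7 endoneurial fibroblast and 4 of 6 Inmt stromal markers above it. The nerve group held myelinating (mSC-like) and nonmyelinating (nmSC-like) Schwann cells, perineurial-like cells and the unnamed cluster 12, which had 10 of 10 myelinating and 5 of 7 perineurial markers together. Nearly all Schwann-like cells were in the GFP+ libraries (1074 and 658 mSC-like and 379 and 886 nmSC-like cells in WT and Sod1KO), with 3 to 7 in any GFP- library that held some. The GFP+ sort also held tenocyte-like (605 and 1291), smooth muscle-like (611 and 473) and endothelial-like (303 and 304) cells, so it is not a pure Schwann cell sort.

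Most members had their highest level in different cell types of the muscle's connective tissue and nerve. Wif1 marked tenocyte-like cells, Sfrp2, Sfrp4 and Dkk2 the fibroblasts, Sfrp5 and Wnt6 the perineurial cells and cluster 12, Sfrp1 both fibroblasts and nmSC-like cells, Frzb the mSC-like cells and Nkd1 smooth muscle-like cells. Dkk3 was spread over perineurial, stromal and tendon cells. In the heatmap of levels by cell type these differences span several powers of 10.

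**Figure D1:**
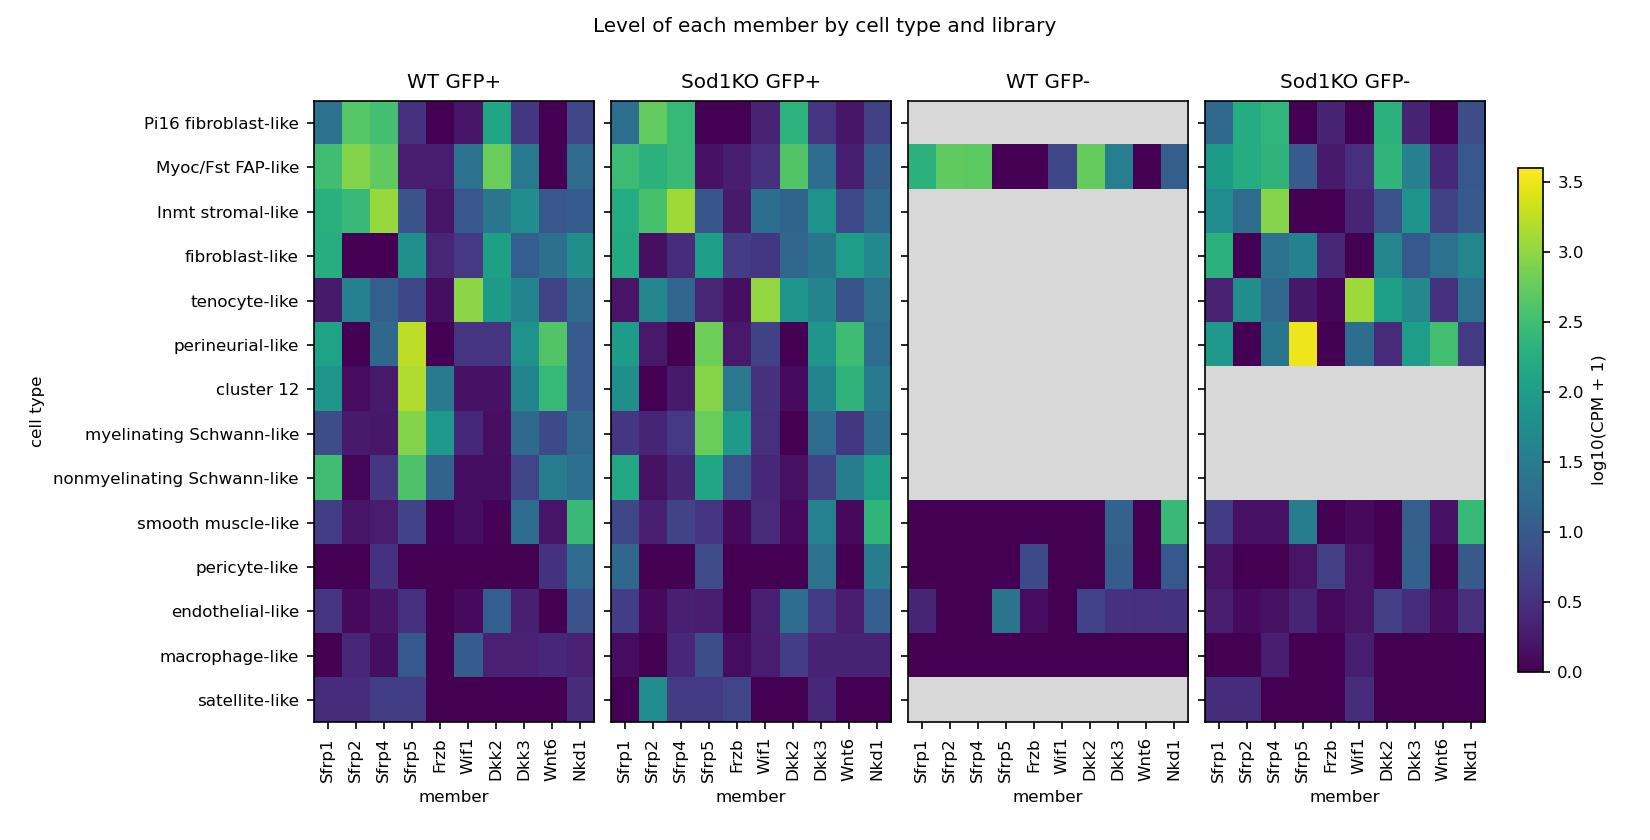
Level of each of the 10 genes (log10 of CPM + 1, colour) in each cell type and library, with grey where a library had under 20 cells of that type. Wif1 is high in the tenocyte-like cells of every library shown, Frzb is brightest in myelinating Schwann-like cells, and endothelial-like cells are near 0 for most genes.

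Of the Frizzled-related decoys, Sfrp2 was mostly a fibroblast transcript in all libraries but WT GFP-. The fibroblast types together held 80.58% of its UMIs in WT GFP+, 61.64% in Sod1KO GFP+, 74.34% in Sod1KO GFP- and 37.19% in WT GFP-. In Pi16 fibroblast-like cells Sfrp2 stood at 453.1 CPM in WT GFP+, 538 in Sod1KO GFP+ and 170.7 in Sod1KO GFP-, with only 2 such cells in WT GFP-. In FAP-like cells it was 864.3, 207.3, 533.2 and 170.6 CPM in WT GFP+, Sod1KO GFP+, WT GFP- and Sod1KO GFP-. The FAP-like values rested on few cells. In WT GFP+, 1 cell held 679 of 1884 UMIs, and 36.75% of 117 cells had any Sfrp2 UMI, whereas 82.54% of the 63 Pi16 cells did. In Sod1KO GFP-, 1 of 532 FAP-like cells held 922 of the 1419 UMIs. Endothelial-like cells, which should lack the transcript, had an Sfrp2 UMI in at most 0.33% of cells, at a median of 11450 UMIs against 17870 in the FAP-like cells of WT GFP+. The unnamed cluster 29, almost all of it from WT GFP-, reached 490.7 CPM there, and it had 4 of 8 endothelial markers above the limit.

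Sfrp4, a decoy of the same family, was highest among the named types in Inmt stromal-like cells, at 1107 CPM in WT GFP+, 1209 in Sod1KO GFP+ and 872.4 in Sod1KO GFP-. That level was uneven between 2 subclusters of Leiden resolution 2. One, with 137 WT GFP+ and 169 Sod1KO GFP+ cells, had 1492 and 1698 CPM. The other, with 208 and 276 cells, had 153.2 and 194.9 CPM. The 2 GFP+ libraries were alike in the share of Inmt cells with an Sfrp4 UMI once every cell was thinned to 1000 UMIs and shallower cells left out, at 29.18% (95% interval 23.93 to 34.88) and 28.79% (24.38 to 33.52). FAP-like cells followed at 520.7, 275.5, 495.8 and 216.8 CPM and Pi16 cells at 330.1 in WT GFP+ and 258.5 in Sod1KO GFP+. The 40 cells of cluster 33, unnamed and led by the bone matrix genes Bglap2, Bglap and Ibsp, were higher still at 1739 CPM over all libraries.

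Sfrp1, which binds Wnt and also Frizzled, was the member shared by fibroblasts and nerve. It was at 310.6 CPM in FAP-like cells and 311.5 in nmSC-like cells of WT GFP+, and at 296 and 144 CPM in the same cells of Sod1KO GFP+. Fibroblast-like cells had 172.5 and 156.8 CPM and Inmt cells 189 and 162.3. In mSC-like cells the level was 6.09 CPM in WT GFP+ and 2.72 in Sod1KO GFP+, far under that of nmSC-like cells.

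Sfrp5 was the decoy of the nerve sheath. Perineurial-like cells, which form the barrier around nerve fascicles, held 1770 CPM in WT GFP+, 637.7 in Sod1KO GFP+ and 3249 in Sod1KO GFP-, with 4418 CPM over just 5 cells of WT GFP-. Cluster 12 had 1492 and 891.1 CPM in WT GFP+ and Sod1KO GFP+, mSC-like cells 853.8 and 602.2, and nmSC-like cells 390.2 and 128.9. Together these 4 held most Sfrp5 UMIs: 33.7% lay in cluster 12, 26.66% in perineurial-like, 24.16% in mSC-like and 10.32% in nmSC-like cells. Frzb had 62.42% of its 1626 UMIs in mSC-like cells, at 87.51 CPM in WT GFP+ and 87.48 in Sod1KO GFP+, and 16.61% in cluster 12.

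Wif1 was almost wholly a tendon transcript here. Tenocyte-like cells held 98.83% of its 63390 UMIs, at 931.6 CPM in WT GFP+, 1043 in Sod1KO GFP+, 1157 over 17 cells of WT GFP- and 1163 in Sod1KO GFP-. Within that type the level was unequal: cluster 0, the main tenocyte cluster led by Wif1, Angptl7 and Chad, had 1204 and 1378 CPM in the 2 GFP+ libraries, and cluster 15 had 20.46 and 32.5. Endothelial-like cells held 0 to 1.095 CPM.

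**Figure D2:**
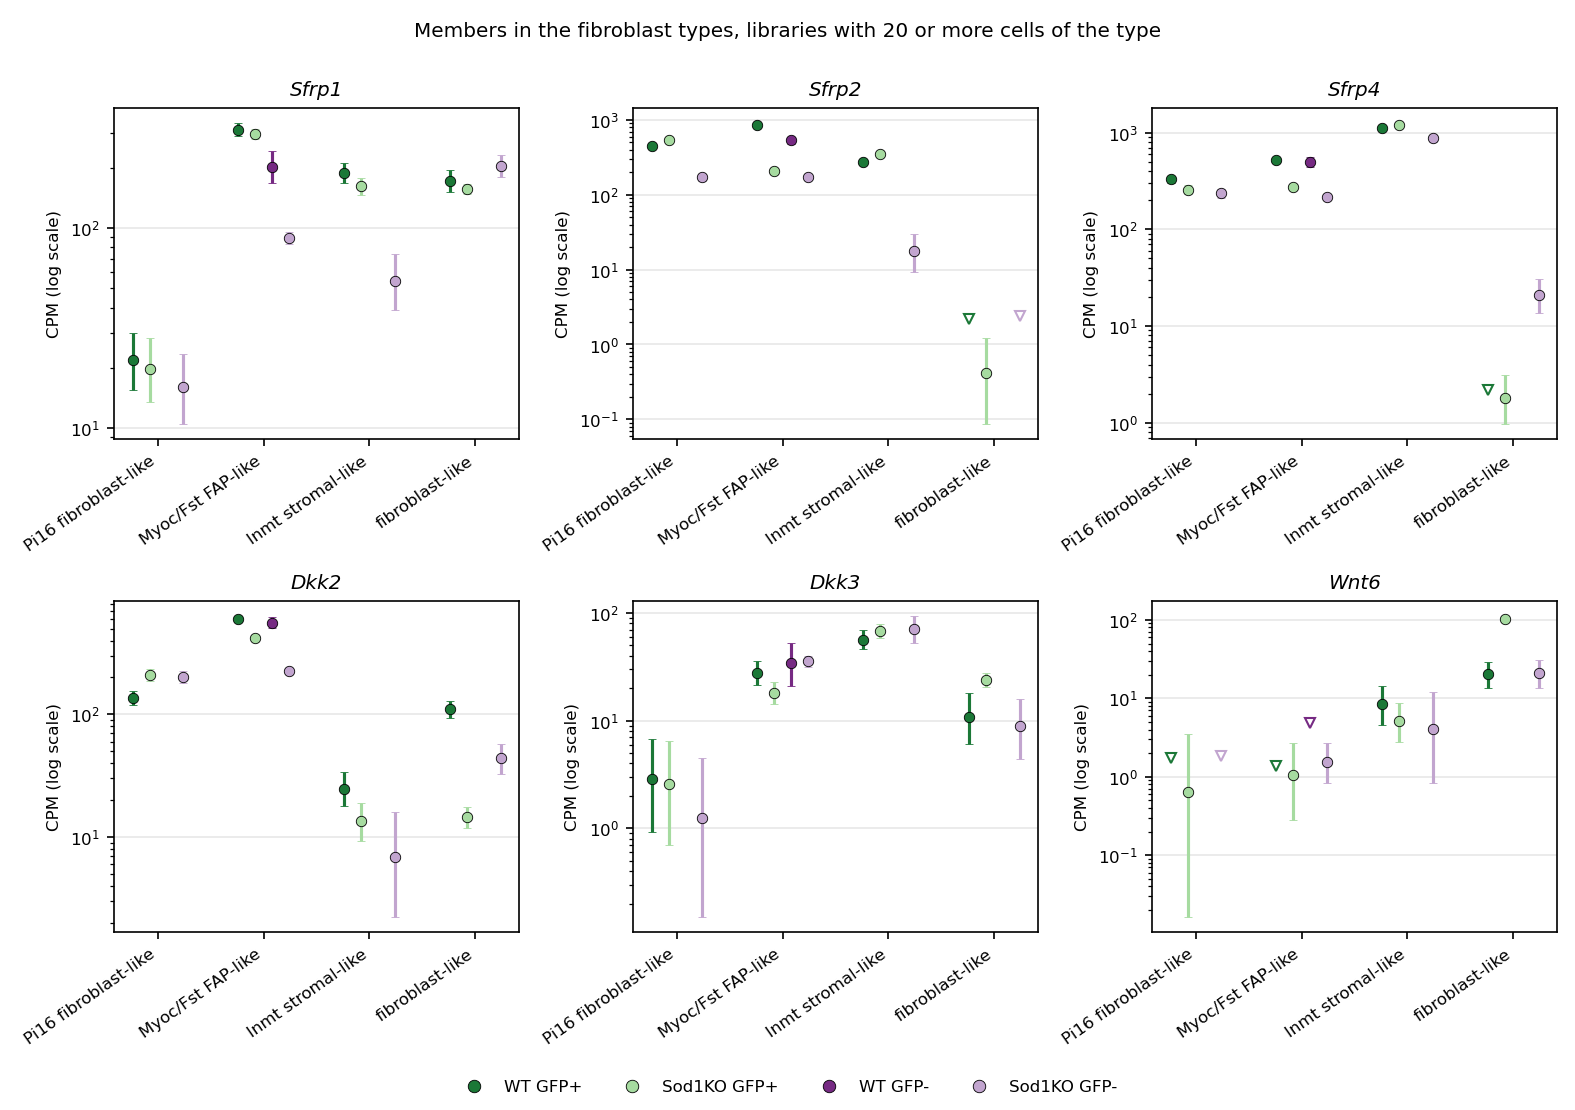
Level of Sfrp1, Sfrp2, Sfrp4, Dkk2, Dkk3 and Wnt6 (CPM, log axis, 1 panel per gene) in each fibroblast type, 1 point per library with at least 20 cells of the type and its 95% Poisson interval, which covers counting error only, and an open triangle at the floor of 3 UMIs where a library held 0 UMIs. In Myoc and Fst cells, Sfrp2 is at 864.3 CPM in WT GFP+ and 207.3 in Sod1KO GFP+, while in Pi16 cells it is at 453.1 and 538.

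Of the Dickkopf genes, Dkk2 was highest in FAP-like cells, at 595.9 CPM for WT and 420.1 for Sod1KO in the GFP+ sort and 559.2 and 226.7 in the GFP- sort. Pi16 cells followed at 135.7, 209.3 and 201.6 CPM in WT GFP+, Sod1KO GFP+ and Sod1KO GFP-, and tenocyte-like cells had 89.48, 78.13 and 107.8 in the same libraries. With 2307 cells over all libraries, the tenocyte-like type held 43.16% of all Dkk2 UMIs, about as many as the 42.01% in FAP-like cells. Dkk3 lay between 68.74 and 102.6 CPM in perineurial-like cells and between 56.75 and 70.88 in Inmt cells of the libraries with at least 20 such cells, and was highest in cluster 33, at 283.1 CPM over all libraries.

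Wnt6, the ligand, was at 422.3 CPM in WT GFP+, 306.3 in Sod1KO GFP+ and 320 in Sod1KO GFP- in perineurial-like cells, and at 256.8 and 221.2 in cluster 12 of the GFP+ libraries. Its perineurial values were closer to one another than those of Sfrp5 in the same cells. Nkd1 was highest in smooth muscle-like cells, which held 61.09% of its UMIs, and its 4 values there were 267.5, 224.6, 263.2 and 256.5 CPM in WT GFP+, Sod1KO GFP+, WT GFP- and Sod1KO GFP-.

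**Figure D3:**
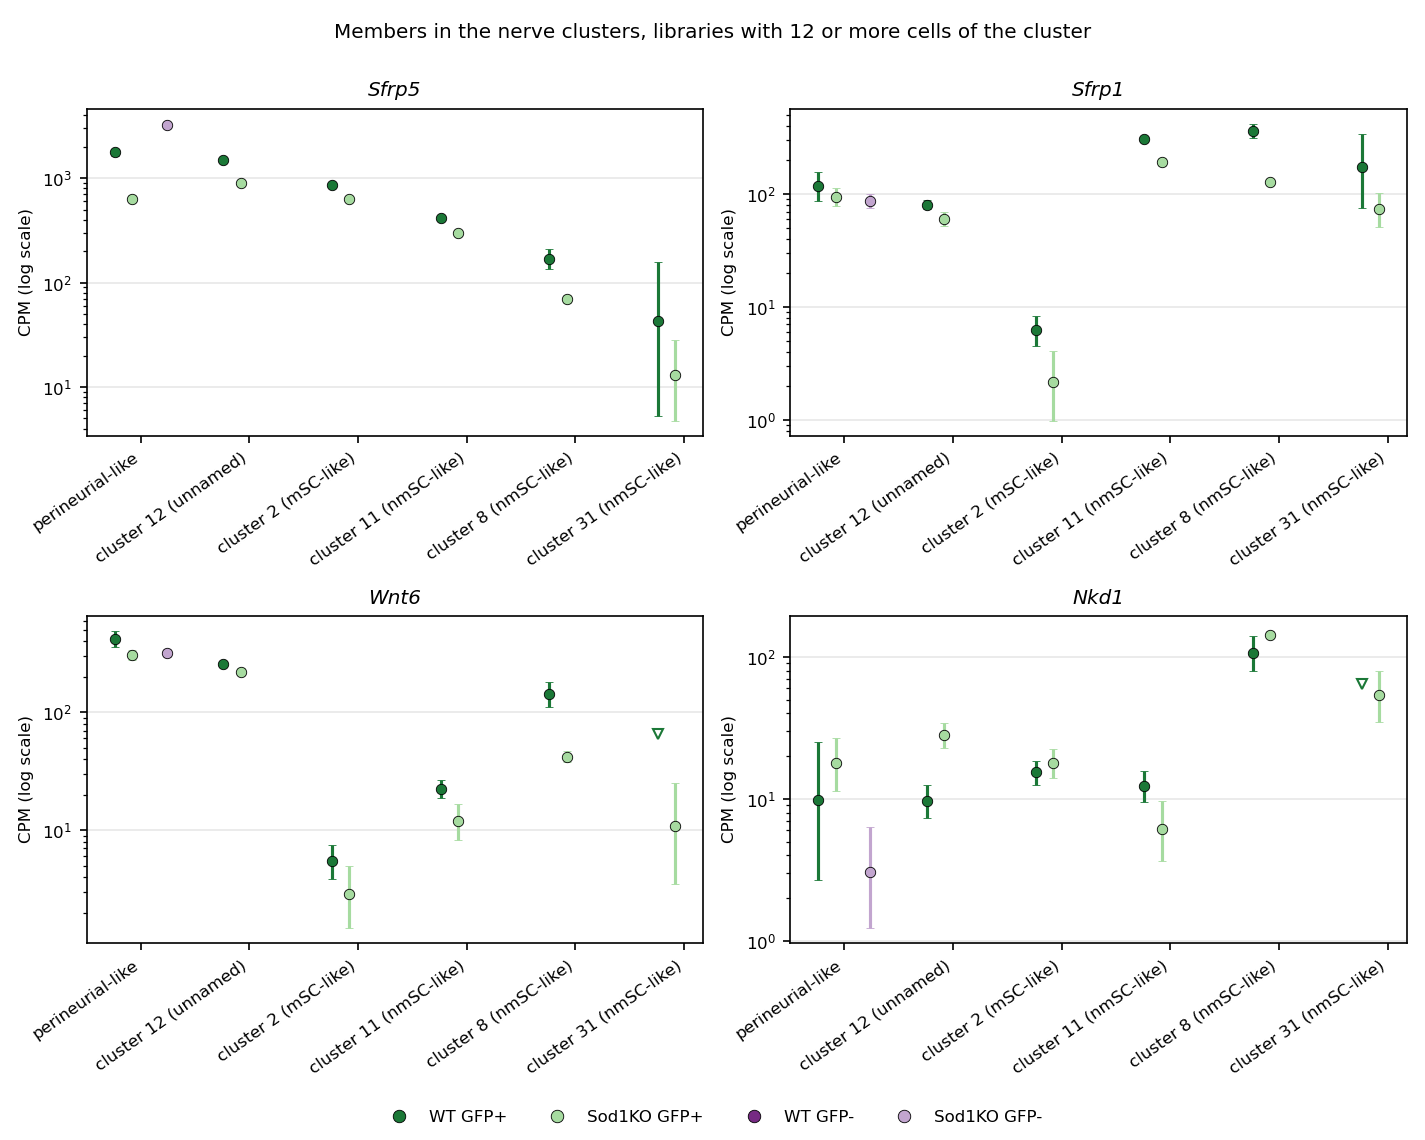
Level of Sfrp5, Sfrp1, Wnt6 and Nkd1 (CPM, log axis, 1 panel per gene) in perineurial-like cells, cluster 12, the mSC-like cluster 2 and the nmSC-like clusters 11, 8 and 31, 1 point per library with at least 12 cells and its 95% Poisson interval, which covers counting error only, and an open triangle at the floor of 3 UMIs where a library held 0 UMIs. Sfrp5 is lower in Sod1KO GFP+ than in WT GFP+ in the perineurial-like cells and clusters 12, 2, 11 and 8, and in perineurial-like cells Sod1KO GFP- lies above both at 3249 CPM.

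Other genes followed the members over the 36 clusters, measured as Pearson's r of log2(CPM + 1), where the points share the 4 libraries. Wif1 was followed by the tendon genes Fmod (0.952), Chad (0.948) and Kera (0.942), Sfrp5 by Paqr6 (0.862) and the BMP and Wnt antagonist gene Sostdc1 (0.852), and Wnt6 by Tenm2 (0.878) and the tight junction gene Cldn1 (0.839). Frzb was followed by Secisbp2l (0.892), Dkk2 by Pdgfra (0.812), the receptor gene that marks fibro-adipogenic progenitors, Sfrp2 by Gm26771 (0.906) and the complement gene C3 (0.794), and Sfrp4 by Nat8f3 (0.866). Nkain4 was nearest to Sfrp1 (0.878), Gpr27 to Dkk3 (0.83) and Wnk2 to Nkd1 (0.713).

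The comparison of Sod1KO with WT asks how the Wnt modulators of muscle and nerve differ in mice without Sod1. The paper uses such mice, when young, to model spontaneous muscle denervation that is followed by reinnervation. In the GFP+ sort, Sfrp2 was lower in the FAP-like cells of the library labelled Sod1KO, and Sfrp5 in its perineurial-like and nmSC-like cells. Dkk2 was lower and Wnt6 higher in cells named only fibroblast-like. Wif1 in tenocyte-like, Sfrp4 in Inmt, Frzb in mSC-like and Nkd1 in smooth muscle-like cells, the named types with their highest levels, were all within 2-fold. Each comparison is given as the log2 ratio of CPM with a counting interval, and a gene was counted as past 2-fold in a cell type with at least 20 UMIs over both libraries and at least 20 cells in each. In all, 13 named types of the GFP+ sort could be compared. Of 130 pairs of member and type, 68 passed the minimum, and of these 10 were lower past 2-fold in Sod1KO, 9 were higher and 49 were within 2-fold. Over all genes in the same types, 3% of pairs were lower and 4.61% were higher. Of the pairs past 2-fold, 4 rested on only 20 to 35 UMIs and have wide intervals.

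In GFP+ FAP-like cells 2 of the 7 members past the minimum were lower past 2-fold and 0 higher, against 1.9% lower and 3.29% higher of all genes, and the members' median log2 ratio was −0.75 (all genes 0.02). Sfrp2 was 4.17-fold lower in Sod1KO (log2 −2.06, interval −2.18 to −1.94). The gap was present in the share of cells as well, at 15.38% (9.38 to 23.22) in WT against 6.72% (4.03 to 10.41) in Sod1KO after thinning to 1000 UMIs, and these intervals overlap. Without the single highest cell of each library the ratio was −1.69, and it was −1.64 and −2.31 in the 2 subclusters of these cells, a split made after the values were seen. The ratio of −2.31 belonged to the part named fibroblast-like at Leiden resolution 2, with 69 WT and 153 Sod1KO cells. Wif1 was 10.6-fold lower, from 48 UMIs in WT, 28 of them in 1 cell, to 8 in Sod1KO. Sfrp4 stayed within 2-fold at −0.92, Dkk2 at −0.50 and Sfrp1 at −0.07. The summed level of the Myoc and Fst marker list differed as well, at 5860 CPM in WT and 3879 in Sod1KO, as did the tenocyte list (1051 and 458), and their part in these ratios was not tested.

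Sfrp2 in the other fibroblasts of the GFP+ sort was not lower. The log2 ratio was 0.25 (0.11 to 0.39) in Pi16 cells, where 0 of 4 members were past 2-fold (all genes 2.17% lower, 3.44% higher), and 0.34 (0.17 to 0.50) in Inmt cells. In Inmt cells 1 of 9 members was past 2-fold, Wif1 at 1.17 with 28 of 48 Sod1KO UMIs in 1 cell (all genes 1.13% lower, 4.38% higher), which was within 2-fold at 0.909 without that cell and at 0.0281 with the mean of CPM per cell, and Sfrp4 was at 0.13 (0.04 to 0.21).

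The remaining fibroblast-like cells, 84 in WT and 445 in Sod1KO, had 1 member of 8 lower and 3 higher, beside 5.6% and 10.4% of all genes. Dkk2 was 7.61-fold lower, from 109.9 to 14.43 CPM (log2 −2.93, −3.30 to −2.56). Wnt6 was 5.05-fold higher, from 20.38 to 103 CPM (log2 2.34, 1.79 to 2.94), and Dkk3 was at 10.9 and 24 CPM (1.13). Frzb was counted as higher on 2 against 25 UMIs, with an interval from −0.74 to 4.39 that spans no difference. The cells compared were not the same mixture: 231 of the Sod1KO cells formed a subcluster with under 20 WT cells, at 153.8 CPM of Wnt6, 174.1 of Sfrp5 and 0.25 of Dkk2. In the subcluster that both libraries held (71 and 214 cells), also split off after the values were seen, Dkk2 was 119 and 33.3 CPM (−1.84) and Wnt6 4.91 and 35.3 CPM (2.85, on 6 and 108 UMIs). Perineurial markers summed to 229.3 CPM in WT and 665.8 in Sod1KO in the fibroblast-like cells, Schwann markers to 369.7 and 849.8, and the fibroblast list to 39820 and 22110. The Inmt stromal list summed to 7222 and 1864 CPM, the first above the 2925 CPM of the Inmt stromal-like cells in WT GFP+. The endoneurial fibroblast list summed to 1010 and 478.8 CPM, and the Myoc and Fst list to 1373 and 626. The part of these lists in the ratios was not tested. At Leiden resolution 2, where the name covers other cells, Dkk2 was at −0.481, Wnt6 at −0.415 and Dkk3 at 0.411, and without doublet removal Dkk3 was at 0.796 and Frzb at 0.594. Dkk3 was also within 2-fold (0.969) with the mean of CPM per cell.

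In the nerve cells of the GFP+ sort, Sfrp5 was lower in Sod1KO in perineurial-like, nmSC-like and mSC-like cells and in cluster 12, past 2-fold in the first 2 of these. It was 2.78-fold lower in Sod1KO in perineurial-like cells (log2 −1.47, −1.62 to −1.33), the 1 of 5 members past 2-fold there (all genes 4.25% lower, 7.04% higher), and 3.03-fold lower in nmSC-like cells (−1.60, −1.70 to −1.5). The share of perineurial-like cells with an Sfrp5 UMI after thinning was 78.57% (63.19 to 89.7) in WT and 28.57% (19.59 to 39) in Sod1KO. These intervals do not overlap, but they cover only the counting of cells within 1 library each, not differences between mice or preparations. For mSC-like cells a log2 ratio of −0.50 (−0.57 to −0.44) was found and for cluster 12 one of −0.74 (−0.80 to −0.69), both within 2-fold, with thinned shares of 54.15% and 39.97% in mSC-like cells. In cluster 12, Nkd1 was higher (1.54, on 159 UMIs; 2.77% of all genes higher, 2.13% lower). Wnt6, by contrast, was at −0.46 (−0.73 to −0.20) in perineurial-like cells. The perineurial marker list summed to 3410 CPM in WT and 2312 in Sod1KO in those cells, and its part in the Sfrp5 ratio was not tested. The GFP- sort gives a different level in cells of the same name, since the 110 perineurial-like cells of Sod1KO GFP- had 3249 CPM of Sfrp5 and 3474 CPM of the marker list. They outnumber the 91 of Sod1KO GFP+, and their Sfrp5 level lies above that of both GFP+ libraries. WT GFP- held only 5 such cells, so the lower Sfrp5 level in perineurial-like cells is shown for the GFP+ sort only.

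The nmSC-like cells had 2 of 7 members lower and 1 higher past 2-fold, where 5.98% and 5.87% of all genes were. Besides Sfrp5, Sfrp1 was 2.16-fold lower (−1.11, −1.21 to −1.02), and Nkd1 was 5.14-fold higher, from 19.97 to 102.6 CPM (2.36, 2.09 to 2.65). The list of nonmyelinating markers summed to 4412 CPM in WT and 2190 in Sod1KO in these cells, and its part was not tested. Most of the WT cells lay in cluster 11 (307 of 379; led by Bche and Ajap1), and most of the Sod1KO cells in cluster 8 (589 of 886; led by Btc and Ngfr). Taken apart after the values were seen, within cluster 8 Sfrp1 was at −1.5 and Sfrp5 at −1.29, within cluster 11 at −0.67 and −0.47, so both had the same sign in each but were past 2-fold in cluster 8 only. The Sfrp5 ratio over all nmSC-like cells (−1.60) was larger in size than in either cluster, whereas that of Sfrp1 (−1.11) lay between them. In cluster 8 the fibroblast marker list summed to 1948 CPM in WT and 867.9 in Sod1KO and the myelinating list to 5394 and 2092, and their part in these ratios was not tested. Nkd1 differed in sign: it was at 0.43 (0.03 to 0.86) in cluster 8, with 106.5 and 143.7 CPM, and at −1.01 (−1.85 to −0.24) in cluster 11, with 12.3 and 6.11 CPM. Its value over all nmSC-like cells was likewise larger than in either cluster. Wnt6 in cluster 8 was 143.4 CPM in WT, over 60 cells, and 42.05 in Sod1KO (−1.77; 9.19% of all genes lower there), while over all nmSC-like cells its log2 ratio was 0.01.

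The mSC-like cells had 2 of 7 members lower and 0 higher (all genes 2.15% and 1.79%), and both stood at low levels: Sfrp1 at 43 and 12 UMIs (−1.16) and Wnt6 at 39 and 12 (−1.02). Without doublet removal they were at −0.731 and −0.979, within 2-fold, and Wnt6 was also at −0.99 with median-of-ratios scaling and under the minimum of UMIs in cells with more than 500 genes and under 5% mitochondrial UMIs. Frzb, the member most typical of these cells, showed no difference detectable at this depth (log2 −0.00, interval −0.19 to 0.19).

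Among tenocyte-like cells, Wif1 was within 2-fold (0.16, 0.14 to 0.19), as were Dkk2 (−0.20) and Dkk3 (0.01). Only Sfrp5 of the 9 members past the minimum was beyond it, at 5.02 and 1.41 CPM (−1.84; all genes 1.44% lower, 3.32% higher), which is close to the 2.16 and 0.88 CPM of endothelial-like cells in the same libraries, and it was at −0.4 without doublet removal. Smooth muscle-like cells had 0 of 5 members lower and 2 higher (all genes 1.17% and 4.16%). These were Dkk3, at 17.52 and 38.58 CPM (log2 1.14, 0.89 to 1.39), and Sfrp4, on 13 and 38 UMIs (2.22), while Nkd1 was at −0.25 (−0.33 to −0.17). Neither call held throughout: Dkk3 was at 0.307 in cells with more than 500 genes and under 5% mitochondrial UMIs, and Sfrp4 was at 0.138 without doublet removal and under the minimum of UMIs with 5% free RNA subtracted. The summed fibroblast markers in these cells were 353.2 CPM in WT and 879.4 in Sod1KO, and their part was not tested.

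The other GFP+ pairs past 2-fold rested on single cells or few UMIs. Sfrp2 in satellite-like cells, the muscle stem cells, had 1 UMI in WT and 34 in Sod1KO, all 34 in 1 cell (1 of 1 member higher; all genes 5.04% lower, 4.37% higher). Wif1 in macrophage-like cells had 27 UMIs in WT, 23 of them in 1 cell, and 3 in Sod1KO (1 of 2 lower; all genes 3.29% and 4.32%), and its ratio was 0.381 without doublet removal. Dkk3 in endothelial-like cells had 5 and 15 UMIs (1 of 4 higher; all genes 1.58% and 2.87%), and it was within 2-fold or under the minimum of UMIs in 4 of 7 other settings. In GFP+ pericyte-like cells 0 members passed the minimum (all genes 5.53% and 5.63%).

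The GFP- sort allowed 5 named types. Of 50 pairs, 19 passed the minimum, and 7 were lower past 2-fold in Sod1KO, 1 was higher and 11 were within 2-fold, where 3.96% and 6.55% of all pairs were lower and higher. The WT side of the fibroblast comparison was 31 FAP-like cells, against 532 in Sod1KO. In them 5 of 8 members were lower and 0 higher (all genes 4.51% and 8.13%), with a median log2 ratio of −1.19 (all genes −0.00). The Myoc and Fst marker list summed to 6005 CPM in WT and 3715 in Sod1KO in these cells and the tenocyte list to 950.9 and 368.2, and their part was not tested. Sfrp2 was 3.13-fold lower (−1.64, −1.82 to −1.47), Dkk2 2.47-fold (−1.30), Sfrp4 2.29-fold (−1.19), Sfrp1 2.28-fold (−1.19) and Wif1 2.39-fold on 3 and 17 UMIs, with an interval for Wif1 of −3.04 to 1.16. Single WT cells weighed heavily, since 1 held 236 of 328 Sfrp2 UMIs and 1 held 190 of 305 Sfrp4 UMIs. Without the highest cell of each library Sfrp2 was at −1.32, Sfrp1 at −0.999, Dkk2 at −0.75 and Sfrp4 at 0.05, so that only Sfrp2 of these 4 was still past 2-fold, and Wif1 dropped under the minimum of UMIs. The thinned share of FAP-like cells with an Sfrp2 UMI was 12.9% (3.63 to 29.83) in WT and 2.26% (1.17 to 3.91) in Sod1KO, intervals that overlap slightly.

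Sfrp5 in GFP- endothelial-like cells was 16.9-fold lower in Sod1KO, at 159 UMIs in 468 cells (23.55 CPM) and 33 UMIs in 1607 cells (1.40 CPM; log2 −4.08), and 2 of 6 members were lower there (all genes 1.98% and 7.33%). Over the other settings that ratio ranged from −7.4 with 5% free RNA subtracted to −1.52 without doublet removal. The endothelial-like cells of the GFP+ sort held 2.16 and 0.88 CPM, so WT GFP- was the high one of the 4 libraries. Perineurial markers in endothelial-like cells summed to 109.6 CPM in WT GFP- and 90.02 in Sod1KO GFP-. The second member lower was Wnt6, with 14 and 7 UMIs (−2.81), which fell under the minimum of UMIs in cells with more than 500 genes and under 5% mitochondrial UMIs, with 5% free RNA subtracted and without the cell holding most of its UMIs, and was at −1.1 without doublet removal. Smooth muscle-like cells had Sfrp5 at 0 UMIs in the 40 WT cells and 126 in the 200 Sod1KO cells, with 64 of the 126 UMIs in 1 cell (1 of 3 members higher; all genes 3.05% and 5.85%). Against a floor of 3 UMIs in the WT library the log2 ratio was 3.33, with an interval from 3.01 upwards. It ranged from 2.3 to 3.38 over the 6 other settings with a value. Nkd1 there was at −0.04 (−0.24 to 0.17). In pericyte-like cells 0 of 2 members were past 2-fold (all genes 3.33% and 5.35%), and 0 members passed the minimum in macrophage-like cells (8.88% and 4.92%).

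Of 68 other Wnt pathway genes, most stayed within 2-fold in the same cells. In GFP+ FAP-like cells 39 passed the minimum, 2 were lower and 0 higher (all genes 1.9% lower, 3.29% higher). The 2 were the ligand gene Wnt2 at 19.73 and 4.67 CPM (−2.08) and the R-spondin gene Rspo2, whose product amplifies Wnt signals, at 17 and 9 UMIs (−1.74). Wnt2 was also lower in Pi16 cells, at 101.8 and 39.57 CPM (−1.36), in Inmt cells at 18.11 and 7.14 CPM (−1.34) and in GFP- FAP-like cells at 16.26 and 6.25 CPM (−1.38). Other listed genes went both ways in these types. Of 33 in Pi16 cells, Cthrc1 was also lower and Lrp5 higher (all genes 2.17% lower, 3.44% higher). Of 35 in Inmt cells, Wnt5b, Ror1, Ror2 and Nkd2 were higher (all genes 1.13% and 4.38%). Of 37 in GFP- FAP-like cells, Fzd5 and Lrp5 were also lower and Fzd1, Cthrc1 and Lgr5 higher (all genes 4.51% and 8.13%). Among fibroblasts named only as such, 3 of 39 listed genes were lower and 5 higher, beside 5.6% and 10.4% of all genes. Lower were Rspo1 (−2.29), Lef1 (−2.06) and Apcdd1 (−1.88). Higher were the ligand genes Wnt5b (2.43, on 1 and 28 UMIs) and Wnt10a (2.41), the antagonist gene Sostdc1 (2.28), the receptor gene Fzd3 (1.90) and Nkd2 (1.04).

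In nmSC-like cells 2 of 37 listed genes were lower (Fzd4, Apcdd1) and 4 higher (Fzd3, Lgr6, Nkd2, Lef1), where 5.98% and 5.87% of all genes were. Nkd2, a paralog of Nkd1, was 14.89 and 90.93 CPM (2.61), the transcription factor gene Lef1 was 0.85 and 6.44 CPM (2.93), the receptor gene Fzd3 was 12.35 and 35.03 CPM (1.5), and the Wnt inhibitor gene Apcdd1 was 46.87 and 17.84 CPM (−1.39). Within cluster 8 and within cluster 11 taken alone, Nkd2 was past 2-fold in each (1.04 and 1.79), whereas Fzd3 (0.78 and −0.32) and Apcdd1 (−0.94 and −0.14) were within 2-fold in both, and Lef1 was past it only in cluster 8, on 1 and 47 UMIs. Perineurial-like cells had 2 of 29 lower, the receptor gene Fzd1 at 108 and 53.14 CPM (−1.02) and Dvl3, and 3 higher on at most 24 UMIs in Sod1KO (all genes 4.25% lower, 7.04% higher). Tenocyte-like cells had 1 of 43 lower, Wnt2 on 26 and 3 UMIs, and 3 higher, among them Wnt4 at 3.67 and 7.96 CPM (1.12; all genes 1.44% lower, 3.32% higher). Of the receptors, Fzd2 was highest in perineurial-like cells over all libraries at 564.9 CPM and Fzd3 in mSC-like cells at 186.93 CPM.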

How the data were processed

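Single-cell RNA was measured in 4 libraries, 1 per group, so replicates were not available and no paired or replicate test was run. The authors deposited raw UMI counts per gene and cell barcode, which their methods and the submitters' processing notes credit to Cell Ranger, version 7.1.0 in the notes and file headers, with build mm10 in the notes. The paper's methods name a later version, and both GRCm39 and GRCm38, which is mm10. Its correction of ambient RNA, doublets and batches came after the deposited counts. No feature is named for GFP.

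Cells with more than 200 genes and under 10% mitochondrial UMIs were kept, and doublets were removed at 0.8% per 1000 barcodes by their share of simulated doublets among 50 neighbours (27 to 366 cells per library). The cells of all libraries were clustered without batch integration on 2000 variable genes, 30 principal components and a graph of 20 neighbours (Leiden, resolution 1), leaving out 78 Wnt genes and members. UMIs were summed per cell type and library and given as CPM, and 0 UMIs were set to a floor of 3. All intervals are exact 95% intervals (Poisson for CPM, Clopper-Pearson for shares, conditional binomial for ratios) and cover counting error only, and UMIs concentrated in single cells make them too narrow. Named genes were all members, the listed Wnt genes past 2-fold in the fibroblast types, and only some of those past 2-fold elsewhere or highest where a member was highest. Members, lists and settings were chosen with earlier results of these data known, and the limits for naming clusters and the minimum of 20 cells after the clusters were seen. The formula of the ratio and the 2-fold call, written out separately, were tested on counts simulated from 1 cell type, and the intervals were not tested. Clusters came from leidenalg 0.10.2 with igraph 0.11.9 and scikit-learn 1.9.0, statistics from SciPy 1.17.1, and plots from Matplotlib 3.10.9, all in Python 3.11.15.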

Additional observations from a re-analysis of the deposited data

Results flagged for a closer look

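Some members differed in opposite directions between cell types of the same sort, and in each case the difference between the cell types was not tested. In the GFP+ sort, Sfrp2 had a log2 ratio of Sod1KO over WT of −2.06 in FAP-like and 4.87 in satellite-like cells, the second on 34 UMIs of 1 cell. Wif1 was at 1.17 in Inmt stromal-like, −3.41 in FAP-like and −3.42 in macrophage-like cells of that sort, none of which holds more than 48 of its UMIs in a library. Wnt6 was at 2.34 in fibroblast-like and −1.02 in mSC-like cells. In the GFP- sort, Sfrp5 was at −4.08 in endothelial-like and 3.33 in smooth muscle-like cells, with 0 UMIs in the WT library of the latter.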

How the results depend on the processing

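Ratios were repeated under up to 8 other settings, and counts of members also without the minimum of UMIs. Of the 27 pairs past 2-fold, some had no value under a setting, which leaves 6 to 8 settings per pair. The count of members higher past 2-fold in the GFP+ sort was 9 as reported, 14 without doublet removal and 18 without the minimum of 20 UMIs. In the GFP- sort, the 7 lower became 2 without the cell with the most UMIs of the member, and the 1 higher became 5 without doublet removal, 0 with the mean of CPM per cell, 2 without the top cell, 4 with Wnt genes kept in the clustering and 2 at Leiden resolution 2. The sign turned for Wnt6 in GFP+ fibroblast-like cells at resolution 2 (−0.415, where the name covers other cells), Wif1 in GFP+ macrophage-like cells without doublet removal (0.381), Sfrp4 in GFP- FAP-like cells without the top cell (0.0493) and Nkd1 within cluster 11 of the nmSC-like cells (−1.01), a split added after the data were seen. The cause was not tested. Sfrp2 and Wif1 in FAP-like, Sfrp1, Sfrp5 and Nkd1 in nmSC-like and Sfrp5 in perineurial-like cells of the GFP+ sort kept their direction past 2-fold under all 8. For Sfrp2 and Wif1, resolution 2 compares partly different cells, since the FAP-like name covers other cells there as well. Dkk2 in GFP+ fibroblast-like cells was at −0.481 at resolution 2. Of the pairs past 2-fold with a value, 26 of 26 remained past it with Wnt genes kept, 26 of 27 with median-of-ratios scaling, 23 of 26 with more than 500 genes and under 5% mitochondrial UMIs per cell, 20 of 23 with 5% free RNA subtracted, 20 of 25 at resolution 2, 20 of 26 with the mean of CPM per cell, 19 of 27 without doublet removal and 18 of 26 without the top cell. No paired analysis was possible because each group has 1 library.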
